A study of Homo sapiens with 6 samples.

Results

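The genes described here are the nuclear-encoded subunits of the respiratory chain and of ATP synthase, followed in the ccRCC (clear cell renal cell carcinoma) cell line Caki2 upon re-expression of PBRM1. They were chosen by symbol: NDUFA, NDUFB, NDUFC, NDUFS and NDUFV genes for complex I, UQCR genes for complex III, COX4I to COX8 genes for complex IV, and ATP5 genes for complex V, without NDUFA4L2. The symbol rule itself used no measured value, but it was written with earlier results of these data known. It gave 80 of the 25369 genes counted, with 37 in complex I, 10 in complex III, 17 in complex IV and 16 in complex V.

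Caki2 lacks PBRM1 protein, the bromodomain subunit that defines the PBAF form of the BAF chromatin remodeling complex. RNA was sequenced from 3 replicates (A, B and C) of cells with an empty doxycycline-inducible lentiviral vector, called Caki2+Vector, and from 3 replicates of cells in which the same kind of vector carried PBRM1, called Caki2+PBRM1. All 6 cultures received doxycycline at 2 µg/ml, so the drug is common to both groups and only PBRM1 differs by design. The labels name the construct and a replicate letter and do not say how many infected lines stand behind each construct. The paper reports drug selection after infection to keep stable lines. Differences that arose between lines and effects of PBRM1 therefore cannot be told apart, and p-values measure the spread between these replicates. The question was which genes respond to the return of PBRM1.

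The respiratory chain sits in the inner mitochondrial membrane. Complex I takes electrons from NADH, complex II from succinate, complex III passes them from ubiquinol to cytochrome c, complex IV hands them to oxygen, and complex V uses the proton gradient so made to form ATP. Most subunits are encoded in the nucleus, made in the cytosol and imported, while a small catalytic set is encoded in mitochondrial DNA, so each complex except complex II has to be built from both genomes. ccRCC is known for loss of VHL, constant HIF activity and a low reliance on respiration.

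Transcription factors known to act at many of these genes include NRF1, the ETS factor GABPA and YY1, whose short motifs lie just before the start sites. A promoter table from RefSeq on GRCh38.p14 matched 63 of the 80 members. The stretches of 5 members are shown to let the motifs be seen in place: 3 members that were lower upon PBRM1 re-expression (NDUFS3, ATP5C1 and ATP5H) and 2 that did not pass the test (COX5B and ATP5J). Each line gives 140 bases that end at the base before the start site, 5′ to 3′ on the strand of the gene. Capitals mark matches to 4 motifs on either strand, namely the NRF1 core GCGCATG, the ETS core CCGGAAG, the YY1 core AAGATGG and the HIF core ACGTG. The stretches are chr11:47578934-47579073 (plus strand) for NDUFS3, chr10:7788037-7788176 (plus) for ATP5C1, chr17:75046970-75047109 (minus) for ATP5H, chr2:97645922-97646061 (plus) for COX5B, and chr21:25735055-25735194 (minus) for ATP5J, the first of 2 windows in the table.
NDUFS3: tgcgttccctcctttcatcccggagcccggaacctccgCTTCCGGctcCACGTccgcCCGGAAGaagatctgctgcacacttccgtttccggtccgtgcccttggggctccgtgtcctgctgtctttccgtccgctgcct
ATP5C1: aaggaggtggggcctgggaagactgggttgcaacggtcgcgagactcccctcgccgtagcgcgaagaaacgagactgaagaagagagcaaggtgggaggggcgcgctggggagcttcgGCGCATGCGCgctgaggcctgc
ATP5H: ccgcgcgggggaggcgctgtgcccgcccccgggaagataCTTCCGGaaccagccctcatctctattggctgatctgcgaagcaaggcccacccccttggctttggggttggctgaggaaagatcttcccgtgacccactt
COX5B: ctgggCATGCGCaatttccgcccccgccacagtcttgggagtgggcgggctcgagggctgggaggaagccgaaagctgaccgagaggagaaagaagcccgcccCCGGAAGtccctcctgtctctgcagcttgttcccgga
ATP5J: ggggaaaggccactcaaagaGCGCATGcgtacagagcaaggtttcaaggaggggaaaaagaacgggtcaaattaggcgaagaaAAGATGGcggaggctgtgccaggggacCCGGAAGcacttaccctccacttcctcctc

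In NDUFS3 an ETS core lay on each strand, 102 to 96 and 83 to 77 bases before the start, with a HIF core between them. In ATP5C1 the capitals hold 2 NRF1 cores that overlap, one on each strand, 22 to 13 bases before the start. ATP5J held an NRF1 core, a YY1 core and an ETS core in turn, and COX5B an NRF1 core and an ETS core. Over the full windows of 300 bases (250 before and 50 after the start), the NRF1 core was found in 13 of 63 members (20.6%) against 5.3% of all 27305 genes in the table. The ETS core was found in 18 members (28.6%, against 12.2% of all genes) and the YY1 core in 17 (27.0%, against 7.11%). The HIF core, a shorter and more frequent string, was found in 17 members (27.0%, against 24.9%). A match describes letters in a window and not a site in use.

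Between 7312955 and 10835355 reads per library lay on genes. The deposited values are normalized counts (reads divided by a size factor for the library and not by gene length), so levels are compared between groups and not between genes. PBRM1 itself stood at 182.2 to 195.0 in Caki2+Vector and at 2432 to 2682 in Caki2+PBRM1, as the labels say. Of 10 renal epithelial carcinoma markers, 9 were at 10 or more in every library, with CA9 at 0 to 15.2, and their summed level was 35254 to 36286 in Caki2+Vector, against 36660 to 37553 in Caki2+PBRM1. Within that sum KRT18 (log2 fold change -0.34) and KRT8 (-0.18) were lower and VIM (0.18) and CDH6 (1.13) higher by limma, and their part in the subunit results was not tested. Of the leukocyte markers, CD3E was at 0 throughout and PTPRC at 0 to 5.68, while CD68, which is not confined to leukocytes, carried the sum of 1997.5 to 2143.7 in Caki2+Vector, against 1897.6 to 1935.9 in Caki2+PBRM1. The endothelial markers PECAM1 and CDH5 summed to at most 1.20 and 2.67, with CDH5 at 0 throughout. The 4 fibroblast markers summed to 92.3 to 102 and 89.8 to 116. In bulk RNA, less RNA in every cell and fewer cells with the RNA cannot be told apart.

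Upon PBRM1 re-expression, 23 subunit genes were downregulated by small amounts, and none was upregulated past the test. Of 72 members with enough reads to be tested (10 or more normalized counts in 3 or more libraries), 23 (31.9%) were lower, against 13.0% of all 13303 genes tested. The test was limma on log2(normalized count + 1) with an adjusted p (Benjamini-Hochberg over all tested genes) under 0.05. Among these 23 genes NDUFB1, an accessory subunit of complex I, fell by 20.4%, the most, and ATP5B, the catalytic beta subunit of ATP synthase, fell by 6.39%, the least. No member was called higher by limma, edgeR or DESeq2, and none had an unadjusted limma p under 0.05 in that direction, where 16.2% of all genes tested were called higher and 20.6% had such an unadjusted p. The remaining 49 members did not pass the test.

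The count of 23 was smaller when Caki2+Vector A, Caki2+Vector B or any Caki2+PBRM1 library was left out. Without Caki2+Vector A or B it was 18 each time, with 14.4% and 10.8% of all genes then called lower. It was 15 without Caki2+PBRM1 A, 14 without Caki2+PBRM1 B and 10 without Caki2+PBRM1 C, with 9.66%, 9.62% and 9.12% of all genes then called lower. edgeR on the whole reads called 25 members lower, among them all 23 (13.8% of all genes), and DESeq2 called 14 (7.95% of all genes). Scaling by total reads in place of the size factors moved the median of all genes to -0.06 on the log2 scale and called 31 members lower (20.9% of all genes). Under that scaling 63.1% of all called genes were lower, against 44.6% with the size factors. With no filter on low values 21 members were lower (8.48% of all genes).

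The median log2 fold change was -0.10 over the 72 tested members and -0.004 over all tested genes, where the median SE was 0.057 for members and 0.083 for all genes. In 56 of the 72 members the log2 fold change was below 0, against 50.6% of all genes tested. In 24 members (33.3%) every Caki2+PBRM1 library was below every Caki2+Vector library, against 19.6% of all genes, and in 2 members (NDUFB11 and ATP5D) every Caki2+PBRM1 library was above, against 22.1%. Among the 23 genes called lower, only ATP5I had groups that overlapped. Called members had more reads behind them, with a median normalized count of 978.9 against 559.6 for members not called and 263.6 for all genes tested. The part of this depth in the count of calls was not tested.

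**Figure D1:**
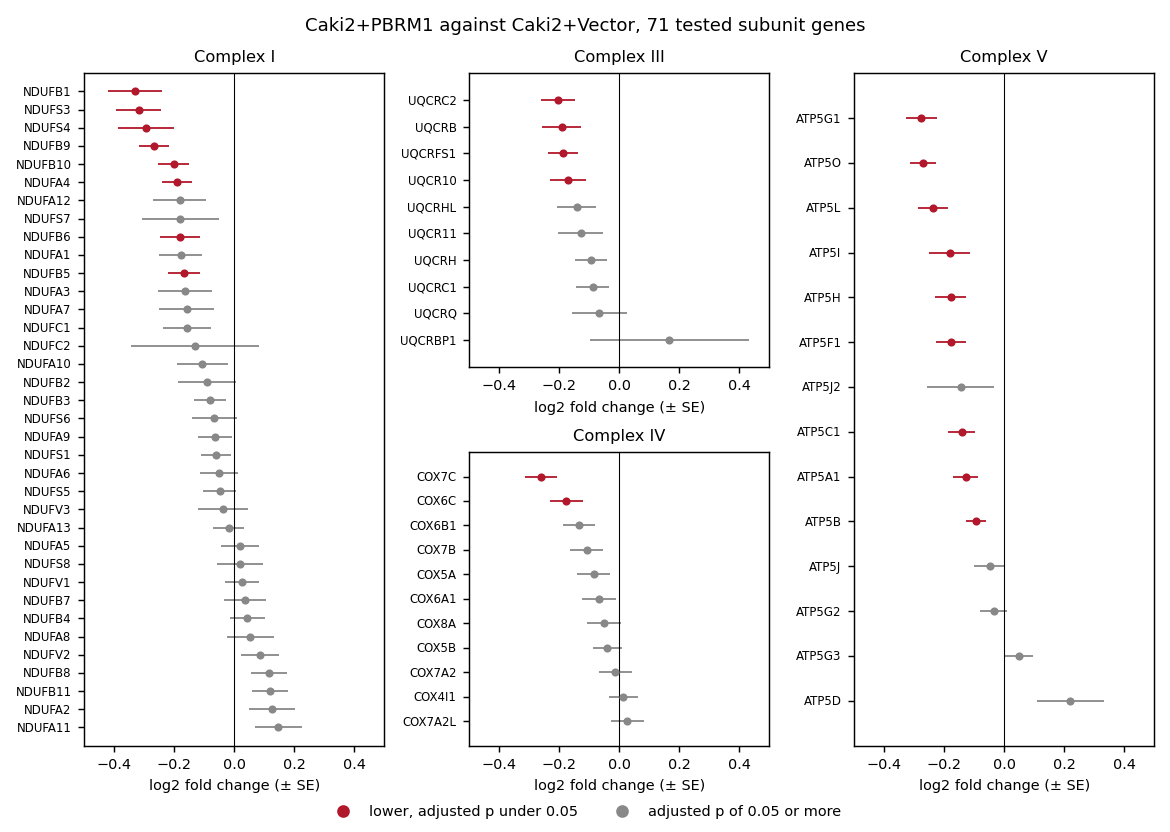
Log2 fold change (Caki2+PBRM1 against Caki2+Vector) with its SE for 71 of the 72 tested subunit genes, by complex, in red where the limma adjusted p was under 0.05. The 23 red points all lie left of 0, from -0.33 for NDUFB1 to -0.10 for ATP5B, and no point right of 0 is called.

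The shift could be followed library by library. Each member was expressed as its log2(normalized count + 1) minus its own Caki2+Vector mean, and the median was taken over the 72 tested members. That median was 0.02, 0.01 and -0.03 in Caki2+Vector A, B and C, and -0.08, -0.12 and -0.10 in Caki2+PBRM1 A, B and C. The groups did not overlap, while the median over all tested genes stayed between 0.00 and 0.01 in all 6 libraries. For complex V the medians were 0.05, 0.01 and -0.05 in Caki2+Vector and -0.13, -0.13 and -0.18 in Caki2+PBRM1. For complex IV the groups overlapped, since Caki2+Vector C stood at -0.08 and Caki2+PBRM1 A and B both stood at -0.06. Taken as a share of all normalized counts, the 72 members made up 0.711% to 0.755% in Caki2+Vector, against 0.653% to 0.670% in Caki2+PBRM1. Their summed normalized counts were 62348.9 to 65813.6, against 59271.9 to 61073.6. The total of all normalized counts was larger in Caki2+PBRM1, so part of the lower share lies in this total.

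**Figure D2:**
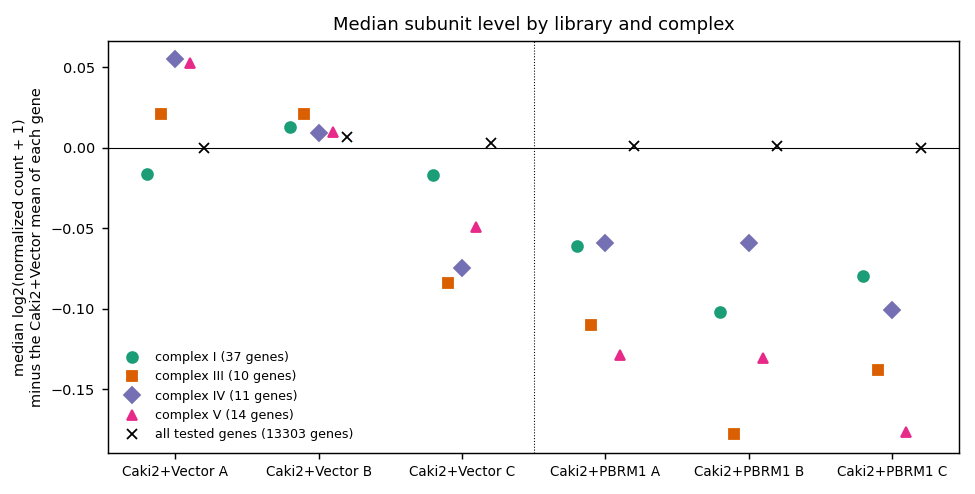
Median level of the tested members of each complex in each library, as log2(normalized count + 1) minus the Caki2+Vector mean of each gene, with the median over all tested genes as crosses. For complex V the 3 Caki2+PBRM1 libraries lie between -0.18 and -0.13, below the 3 Caki2+Vector libraries at -0.05 to 0.05, while for complex IV Caki2+Vector C lies among the Caki2+PBRM1 libraries.

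Complex I, the NADH dehydrogenase, had 8 of 37 members lower (21.6%, against 13.0% of all genes tested). Its median log2 fold change was -0.07, with a range from -0.33 to 0.15. The count of 8 went to 4 without Caki2+PBRM1 C, where 9.12% of all genes were called lower. DESeq2 called 5 of its members lower (7.95% of all genes). Most of its subunits are accessory, which means that they surround the catalytic core and are needed for its assembly and stability. NDUFB1 (chr14:92582466-92588261 on GRCh37, minus strand) stood at 280.2, 226.7 and 242.1 in Caki2+Vector and at 197.1, 214.2 and 183.0 in Caki2+PBRM1. The groups came close but did not overlap, and the gene fell by 20.4% (log2 fold change -0.33, SE 0.091, adjusted p = 0.0066 by limma, and 0.0577 without Caki2+PBRM1 C). NDUFS4 (chr5:52856463-52979168, plus strand), an accessory subunit whose loss is a cause of Leigh syndrome, stood at 214.0, 207.8 and 207.4 and then at 192.8, 157.3 and 164.5. It fell by 18.4% (log2 fold change -0.29, SE 0.093, limma adjusted p = 0.0172), and its 3 Caki2+PBRM1 libraries spread more widely than its Caki2+Vector libraries. The call was lost with DESeq2 (adjusted p = 0.0822) and, by limma, without Caki2+PBRM1 B (adjusted p = 0.114) or C (adjusted p = 0.0787). NDUFB9, an accessory subunit of the membrane arm, went from 1047, 1111 and 1050 to 889.3, 874.6 and 901.4. Here both groups were tight and well apart, with a log2 fold change of -0.27 (SE 0.049, limma adjusted p = 9.93e-05).

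Of the 6 nuclear-encoded core subunits reported here, only NDUFS3 passed the test. NDUFS3 (chr11:47586888-47606114, plus strand), a core subunit of the matrix arm and the gene whose promoter above has the paired ETS cores, stood at 389.1, 422.3 and 371.6 in Caki2+Vector and at 288.1, 327.1 and 334.0 in Caki2+PBRM1. It fell by 19.8% (log2 fold change -0.32, SE 0.075, limma adjusted p = 0.00163), with no overlap. NDUFS7, an iron-sulfur subunit next to the quinone site, had a log2 fold change of -0.18 but an SE of 0.13 at levels near 100, and its groups overlapped (adjusted p = 0.316, limma). NDUFS1, the largest core subunit, was at -0.06. NDUFV1, which binds NADH, was at 0.03, its partner NDUFV2 at 0.09 and the iron-sulfur subunit NDUFS8 at 0.02, each with an SE of 0.057 to 0.076. The signs of NDUFV1 and NDUFS8 turned under scaling by total reads.

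The other called members of complex I were NDUFB10, NDUFA4, NDUFB6 and NDUFB5, with log2 fold changes of -0.20, -0.19, -0.18 and -0.17. NDUFB6 and NDUFB5 kept their calls in 2 and 3 of the 6 fits that leave out a library. Neither was called by DESeq2 (adjusted p of 0.154 and 0.0534). NDUFA4 (chr7:10971570-10979780, minus strand) is counted in complex I by its symbol but was later assigned to complex IV. It stood at 1166, 1147 and 1076 in Caki2+Vector and at 1039, 965.3 and 964.3 in Caki2+PBRM1, with no overlap (SE 0.05, limma adjusted p = 0.00414). At the other end, NDUFA11, a membrane arm subunit, had the highest log2 fold change of the complex at 0.15 (SE 0.079, limma adjusted p = 0.171), and its groups overlapped. NDUFB11 did not overlap, at 553.8, 578.2 and 522.6 against 582.7, 588.4 and 624.4, but missed the threshold (log2 fold change 0.12, SE 0.06, limma adjusted p = 0.141). NDUFC2, at 23.8 to 29.4, shares its locus with a read-through gene model, NDUFC2-KCTD14, listed at 0 throughout, so its level is uncertain. NDUFB2 and NDUFA6 have antisense gene models, at 2.83 to 11.6 and 0.839 to 6.61, and whether the counting used strand is not given in the sources used here.

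Complex III, the cytochrome bc1 complex, had 4 of 10 members lower (40.0%, against 13.0% of all genes tested). Its median log2 fold change was -0.14. UQCRC2 (chr16:21964609-21994981, plus strand), a core protein of the matrix side, stood at 762.1, 798.3 and 703.6 in Caki2+Vector and at 675.9, 630.2 and 658.0 in Caki2+PBRM1. UQCRFS1 (chr19:29696227-29704058, minus strand), the Rieske iron-sulfur protein that passes electrons on toward cytochrome c, stood at 981.7, 935.3 and 992.4 and then at 868.7, 820.4 and 862.8. In both genes every Caki2+PBRM1 library was below every Caki2+Vector library, and they fell by 13.1% (log2 fold change -0.20, SE 0.057, limma adjusted p = 0.00753) and 12.3% (log2 fold change -0.19, SE 0.05, limma adjusted p = 0.00494). UQCRC2 lost its call without Caki2+Vector B (limma adjusted p = 0.0553) or Caki2+PBRM1 B (limma adjusted p = 0.0617). UQCRC1, the other core protein, was at -0.09 (SE 0.055, limma adjusted p = 0.24) with overlapping groups.

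UQCRB, a small subunit close to the ubiquinone site, stood at 1395, 1172 and 1098 in Caki2+Vector and at 1084, 1052 and 1055 in Caki2+PBRM1. Caki2+Vector A was the high library, and without it the log2 fold change went from -0.19 (limma adjusted p = 0.0327) to -0.09 (limma adjusted p = 0.114). UQCR10, another small subunit, was lower by a log2 fold change of -0.17 (limma adjusted p = 0.0333). UQCRB and UQCR10 each kept the call in only 1 of the 6 fits that leave out a library. The complex III count was 1 without Caki2+Vector B and 2 without Caki2+PBRM1 A or C. It was 0 without Caki2+PBRM1 B, where UQCRFS1 narrowly missed the threshold (limma adjusted p = 0.0502). In these fits 9.12% to 10.8% of all genes were called lower. UQCRH and UQCRHL are near-identical copies that reads cannot easily tell apart (log2 fold changes -0.10 and -0.14, neither called), and UQCRBP1 is a pseudogene at 13.2 to 24.9.

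Complex IV, cytochrome c oxidase, had 2 of 11 tested members lower (18.2%, against 13.0% of all genes tested) and a median log2 fold change of -0.07. COX7C (chr5:85913745-85916779, plus strand), a small subunit around the catalytic core, stood at 1488, 1397 and 1334 in Caki2+Vector and at 1264, 1082 and 1178 in Caki2+PBRM1. It fell by 16.6% with no overlap (log2 fold change -0.26, SE 0.054, limma adjusted p = 0.000461). COX6C, also a small subunit, went from 1165, 1024 and 982.8 to 933.7, 970.6 and 898.0. Its groups lay side by side, with Caki2+PBRM1 B just under Caki2+Vector C. Without Caki2+Vector A the limma adjusted p of COX6C went from 0.0196 to 0.0916. COX6C kept its call in 3 of the 6 fits that leave out a library and was not called by DESeq2 (adjusted p = 0.0524). The complex IV count was 1 without Caki2+Vector A and without Caki2+PBRM1 A or C, and 4 without Caki2+Vector C. In these fits 9.12% to 14.4% of all genes were called lower. DESeq2 called 1 member of complex IV (7.95% of all genes).

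The 3 larger nuclear subunits of complex IV did not pass the test. COX4I1 (chr16:85832239-85840674, plus strand), the largest nuclear-encoded subunit and a point of regulation by ATP, stood at 1588, 1604 and 1401 in Caki2+Vector and at 1557, 1543 and 1527 in Caki2+PBRM1. The groups overlapped, with a log2 fold change of 0.01 (SE 0.048, limma adjusted p = 0.869) whose sign turned under quantile normalization (-0.02) and total reads (-0.04). COX5A and COX5B were at -0.09 and -0.04. The ratio of COX7C to COX4I1 within a library was 0.937, 0.871 and 0.952 in Caki2+Vector and 0.812, 0.701 and 0.771 in Caki2+PBRM1, so the groups did not overlap. An exact permutation test (two-sided) gave p = 0.1, the smallest that 3 against 3 allows, and 0.2 after adjustment over 6 ratios (Benjamini-Hochberg). COX7C was the most decreased tested member of complex IV and COX4I1 hardly moved, so the ratio adds no separate evidence.

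Several subunits of complex IV come in isoforms for different tissues, and the forms restricted to certain tissues were at or near 0 in Caki2. COX4I2, COX6A2 and COX7B2 had 0 reads in every library, which allows up to 3 reads a library by counting error alone. COX7A1, the heart and muscle form, was at 0 to 1.1, COX8C at 0 to 0.9 and COX6B2 at 1.8 to 9.5, all under the filter. Their widespread partners were read well and did not pass the test: COX6A1 was at -0.07, COX6B1 at -0.13 (limma adjusted p = 0.058), COX7A2 at -0.01, COX7B at -0.11 and COX8A at -0.05 on the log2 scale. COX7A2L, known for a role in binding complexes III and IV together, was at 0.03, and its ratio to COX7A2 differed by 0.04 on the log2 scale (exact permutation p = 0.6).

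**Figure D3:**
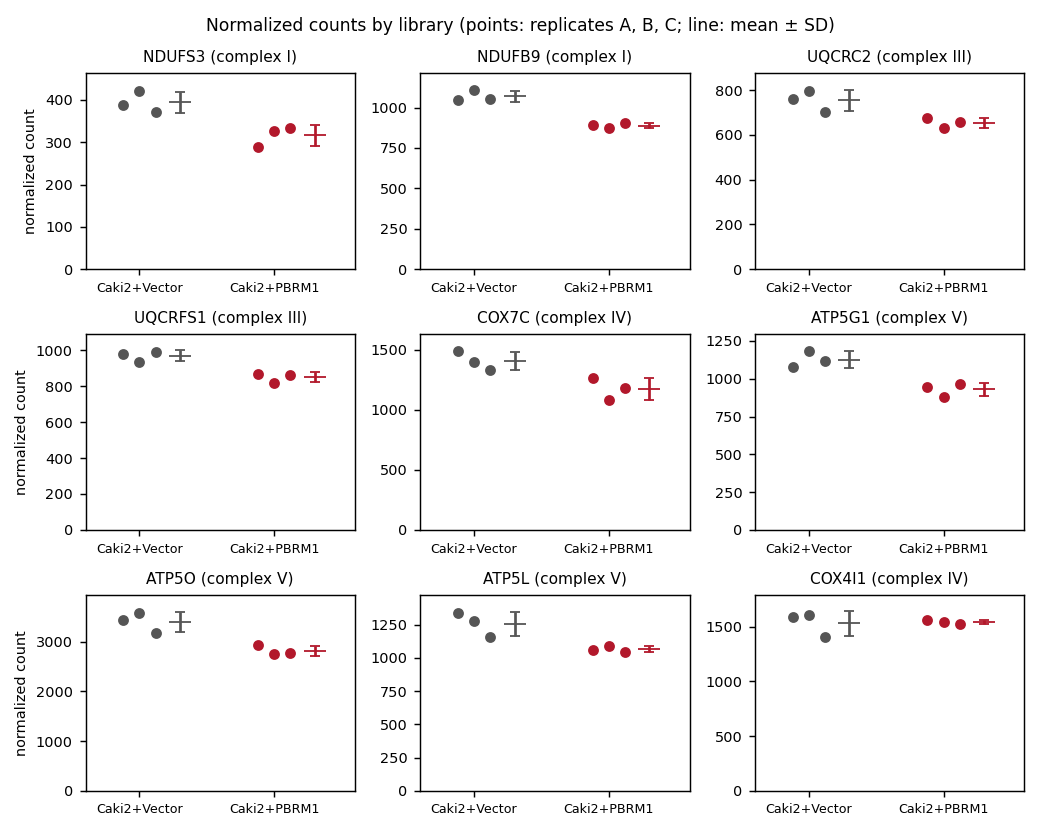
Normalized counts of 9 members in each library, with points for replicates A, B and C and a line for mean ± SD, each axis starting at 0. In 8 of them every Caki2+PBRM1 point lies below every Caki2+Vector point, as for ATP5O at 2742 to 2933 against 3176 to 3576, while for COX4I1 the groups overlap.

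Complex V, the ATP synthase, had 9 of 14 tested members lower (64.3%, against 13.0% of all genes tested). Its median log2 fold change was -0.14. The share called lower was higher than in the other complexes, but no test between complexes was made. The median log2 fold change of -0.144 lay near the -0.135 of complex III. The median SE was 0.051 in complex V, against 0.069, 0.062 and 0.055 in complexes I, III and IV. The part of this smaller SE in the share was not tested. ATP5G1 and ATP5O had the largest decreases of complex V. ATP5G1 (chr17:46970127-46973233, plus strand), one of 3 genes for the same mature c subunit, stood at 1076, 1184 and 1117 in Caki2+Vector and at 946.7, 879.9 and 962.7 in Caki2+PBRM1 (log2 fold change -0.28, SE 0.051, limma adjusted p = 0.000121). ATP5O (chr21:35275757-35288118, minus strand), the OSCP subunit that links the peripheral stalk to the catalytic head, stood at 3446, 3576 and 3176 and then at 2933, 2742 and 2771 (log2 fold change -0.27, SE 0.043, limma adjusted p = 1.42e-05). Both were without overlap and fell by 17.4% and 17.1%.

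ATP5L, subunit g of the membrane part, went from 1337, 1280 and 1160 to 1063, 1093 and 1044 with no overlap (log2 fold change -0.24, SE 0.051, limma adjusted p = 0.000663). ATP5I, subunit e and the neighbour of g where the enzyme forms dimers, stood at 638.1, 571.6 and 540.5 in Caki2+Vector and at 566.5, 479.1 and 496.9 in Caki2+PBRM1. Its groups overlapped, with Caki2+PBRM1 A above Caki2+Vector C, and its limma adjusted p of 0.0482 was just under the threshold. ATP5H and ATP5F1, subunits d and b of the peripheral stalk, were at -0.18 on the log2 scale each, and ATP5C1, the gamma subunit that turns within the head, was at -0.14. ATP5A1, the alpha subunit of the catalytic head, fell by 8.54% and ATP5B fell by 6.39%. ATP5A1, ATP5B, ATP5C1 and ATP5I were not called by DESeq2 (adjusted p of 0.0608, 0.0562, 0.0599 and 0.117). By limma, ATP5A1, ATP5B and ATP5I kept the call in 2 of the 6 fits that leave out a library, and ATP5C1 in 3. ATP5B was read most deeply, at 8449, 8857 and 8483 against 8155, 7906 and 8077, and its SE of 0.033 was the smallest of these genes (limma adjusted p = 0.027). The complex V count was 3 without Caki2+PBRM1 C, where ATP5G1, ATP5O and ATP5L were left and 9.12% of all genes were called lower. DESeq2 called 5 members of complex V (7.95% of all genes).

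Of the 3 genes for the c subunit only ATP5G1 was called. ATP5G2 was at -0.04 (SE 0.045) and ATP5G3 at 0.05 (SE 0.048), neither called, and the sign of ATP5G3 turned under scaling by total reads (-0.01). The ratio of ATP5G1 to ATP5G3 was 0.59, 0.571 and 0.577 in Caki2+Vector and 0.454, 0.467 and 0.467 in Caki2+PBRM1. This was a log2 difference of -0.32 with no overlap (exact permutation p = 0.1, the smallest possible, and 0.2 after adjustment over 6 ratios). Since ATP5G1 was the most decreased member of complex V, this ratio adds no separate evidence. The ratio of ATP5G1 to ATP5G2 overlapped between groups (exact permutation p = 0.2), as did that of ATP5G2 to ATP5G3 (exact permutation p = 0.6).

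Of the other members, ATP5J, the F6 coupling factor whose promoter is shown above, was at -0.05. ATP5D, the delta subunit of the head, stood at 107.0, 134.2 and 141.4 in Caki2+Vector and at 141.9, 149.3 and 151.9 in Caki2+PBRM1. It did not overlap, but its adjusted p was 0.14 (log2 fold change 0.22, SE 0.11, limma). Under the filter were ATP5E, the epsilon subunit, at 2.4 to 6.2 and ATP5L2 at 0 to 2.8. The low value of ATP5E is uncertain, since its processed copy ATP5EP2 was listed at 45.5 to 74.6 and the read-through model SLMO2-ATP5E at 0. ATP5J2 likewise overlaps the read-through model ATP5J2-PTCD1, listed at 0.

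**Figure D4:**
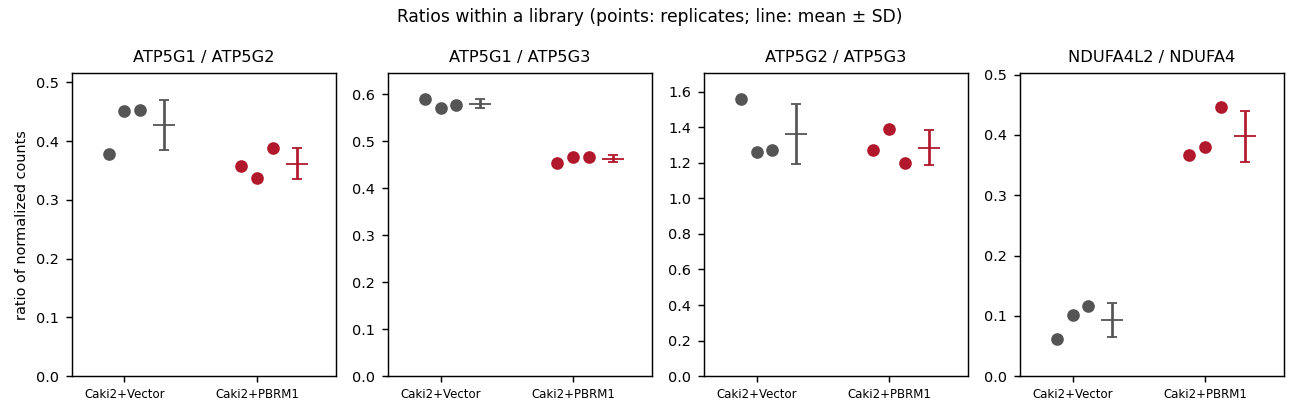
Ratios of normalized counts within each library for the 3 pairs of c subunit genes and for NDUFA4L2 over NDUFA4, with points for replicates and a line for mean ± SD. ATP5G1 over ATP5G3 lies between 0.571 and 0.59 in Caki2+Vector, between 0.454 and 0.467 in Caki2+PBRM1, and NDUFA4L2 over NDUFA4 at 0.0609 to 0.116 and at 0.367 to 0.446.

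Of the 23 called members, 8 were called in all 6 fits that leave out a library: NDUFS3, NDUFB9, NDUFB10, NDUFA4, COX7C, ATP5G1, ATP5O and ATP5L. They come from complexes I, IV and V, and all 8 lay at or below a log2 fold change of -0.16 in each of those fits. The promoter motifs did not sort the called members in a single way. Of 17 called members with a promoter, 2 (11.8%) held the NRF1 core, against 11 of 41 tested members not called (26.8%). The ETS core was in 5 (29.4%) against 13 (31.7%), the YY1 core in 7 (41.2%) against 10 (24.4%), and the HIF core in 6 (35.3%) against 11 (26.8%). These shares are descriptions over few genes and were not tested.

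Subunits that the symbols leave out were read from a list of 12, all tested, of which 4 were lower (33.3%, against 13.0% of all genes tested) and 1 higher (8.33%, against 16.2%), with a median log2 fold change of -0.10. The 4 were SDHB, the iron-sulfur subunit of complex II (-0.24), SDHD, one of its membrane anchors (-0.21), cytochrome c (CYCS, -0.19) and CYC1, the cytochrome c1 of complex III (-0.18). SDHB stood at 841.6, 827.6 and 776.7 in Caki2+Vector and at 665.1, 705.7 and 703.3 in Caki2+PBRM1 (limma adjusted p = 0.0012). The other subunits of complex II, SDHA and SDHC, were at 0.04 and 0.02 and not called. The 13 subunits encoded in mitochondrial DNA were looked for by symbol and 0 were matched, so they are not analysed here.

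NDUFA4L2, the HIF-induced relative of NDUFA4 that is known to lower complex I activity, was the 1 gene of that list that rose. It stood at 71.0, 117.2 and 124.6 in Caki2+Vector and at 381.3, 367.1 and 429.7 in Caki2+PBRM1, a 3.84-fold increase with no overlap (log2 fold change 1.94, SE 0.20, limma adjusted p = 9.94e-05). The ratio of NDUFA4L2 to NDUFA4 went from 0.0609, 0.102 and 0.116 to 0.367, 0.38 and 0.446. Between groups the ratios were fully apart, at the lowest p that an exact permutation test of 3 against 3 can give (p = 0.1, and 0.2 after adjustment over 6 ratios). As single genes NDUFA4L2 was called higher and NDUFA4 lower, so this ratio adds no separate evidence.

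The assembly factors, which help to build the complexes but are not part of them, were described in the same way. Of 13 for complex I, 3 passed the test, all lower (median log2 fold change -0.12). These were NDUFAF2 (-0.42), which acts late in assembly, and ECSIT (-0.35) and TMEM126B (-0.31), both of the complex that builds the membrane arm. Of 6 for complex III, 1 was lower: UQCC2, needed for the synthesis of cytochrome b, stood at 368.3, 382.6 and 353.6 in Caki2+Vector and at 271.9, 281.8 and 282.8 in Caki2+PBRM1 (log2 fold change -0.40, SE 0.072, limma adjusted p = 7.56e-05). Of 18 tested for complex IV, 2 were lower, COA4 (-0.24) and COA6 (-0.19), the latter with a role in copper delivery. Of 3 for complex V, ATPAF1, a chaperone of the beta subunit, was lower (-0.21). The 7 called factors, all lower, were 17.5% of the 40 tested, against 13.0% of all genes, and the shares for complexes III (16.7%) and IV (11.1%) lay near that background. DESeq2 called 3 of them (ECSIT, TMEM126B and UQCC2), with adjusted p of 0.0531 for NDUFAF2, 0.0871 for COA4, 0.162 for COA6 and 0.058 for ATPAF1. The medians of the 4 lists lay between -0.16 and -0.07.

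Among 14 regulators of mitochondrial genes, 3 passed the test, all lower (21.4%, against 13.0% of all genes tested, with a median of -0.06). They were the coactivator PPARGC1B (-0.43), MYC (-0.30) and TFAM (-0.15), the factor that packages and transcribes mitochondrial DNA. TFAM stood at 1134, 1052 and 1121 in Caki2+Vector and at 961.9, 995.5 and 1015 in Caki2+PBRM1 (limma adjusted p = 0.0178). DESeq2 called only MYC, with adjusted p of 0.0748 for PPARGC1B and 0.0658 for TFAM. The factors whose motifs are shown above did not pass the test, with NRF1 at 0.07 (SE 0.091), GABPA at -0.09 (SE 0.061) and YY1 at -0.08 (SE 0.05). PPARGC1A, the best known coactivator of mitochondrial biogenesis, was at 0.18 (SE 0.14, limma adjusted p = 0.364).

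A list of hypoxia-linked genes, put together as brakes on respiration, was read beside them. Like the other lists, it was written with earlier results of these data known, so the share below is only a description. It shares NDUFA4L2 with the list of subunits outside the symbols. The paper reports hypoxia-response genes as upregulated in these cells. Of 7 list genes tested, 5 passed the test, all higher (71.4%, median log2 fold change 0.60), against 16.2% of all genes called higher. Besides NDUFA4L2 they were BNIP3, which marks mitochondria for removal (0.64), MXI1, an antagonist of MYC (0.62), PDK1, the kinase that keeps pyruvate out of the TCA cycle (0.60), and HIGD1A, a hypoxia-induced partner of complexes III and IV (0.15), which DESeq2 did not call (adjusted p = 0.124). PDK1 stood at 558.5, 496.0 and 578.9 in Caki2+Vector and at 850.3, 835.5 and 786.4 in Caki2+PBRM1 (limma adjusted p = 5.08e-09). The protease LONP1, at 0.04, and the iron-sulfur scaffold ISCU, at -0.02, were not called, and COX4I2 had no reads.

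Markers often read as a measure of mitochondrial content were also counted. Of 15 tested, 5 were lower (33.3%, against 13.0% of all genes tested) and 3 higher (20%, near the background of 16.2%), with a median log2 fold change of -0.04. HSPD1 (-0.31), the mitochondrial chaperonin, the import receptor TOMM22 (-0.22), the ADP/ATP carrier SLC25A5 (-0.21), HSPA9 (-0.20) and citrate synthase (CS, -0.18) were lower. The carrier SLC25A4 (0.39), the import receptor TOMM20 (0.20) and the porin VDAC3 (0.14, not called by DESeq2 with adjusted p = 0.0908) were higher. Whether the amount of mitochondria had a part in the subunit levels was not tested.

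**Figure D5:**
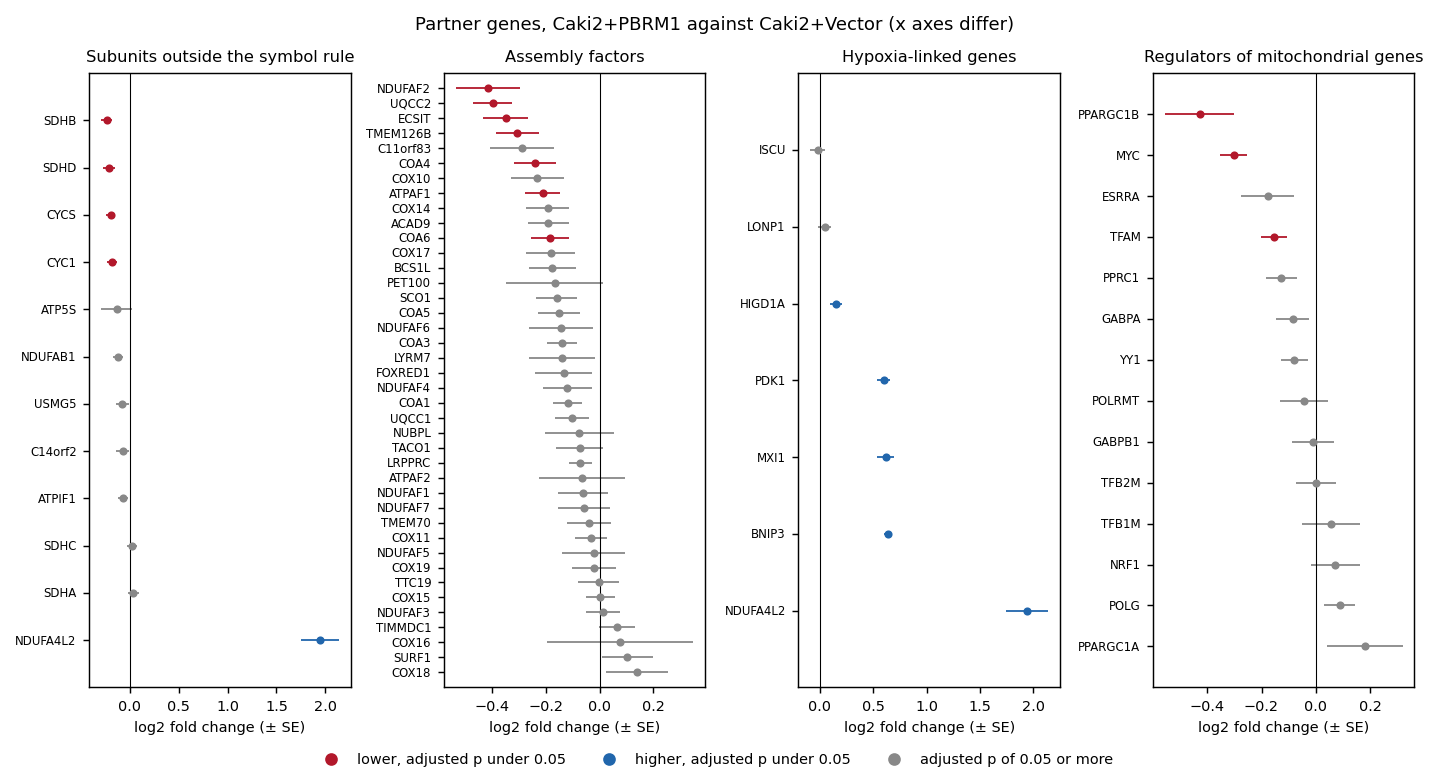
Log2 fold change (Caki2+PBRM1 against Caki2+Vector) with its SE for subunits outside the symbol choice, assembly factors, hypoxia-linked genes and regulators of mitochondrial genes, on x axes that differ between panels, in red where lower and blue where higher (limma adjusted p under 0.05). All called assembly factors and regulators lie left of 0, from -0.43 for PPARGC1B, while NDUFA4L2 lies at 1.94 and the other 4 called hypoxia-linked genes at 0.15 to 0.64.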

How the data were processed

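RNA-Seq of 3 Caki2+Vector and 3 Caki2+PBRM1 libraries was used, with groups and replicate letters from the sample labels. Before counting, the authors trimmed adapters and dropped poor-quality and rRNA reads. They aligned what was left to hg19 with STAR, counted reads per gene of a UCSC annotation with htseq-count (HTSeq) and normalized with DESeq2, in versions not given in the sources used here. The values the authors deposited are a signal of reads per gene divided by 1 size factor per library (0.834 to 1.19), and whole reads were recovered for 100% of values (within 0.01). Each library has a file of its own, with no pooling.

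The members and all gene lists were chosen with earlier results of these data known. The 13303 genes at 10 or more normalized counts in 3 or more libraries were tested as log2(normalized count + 1) with limma 3.58.1 (trend and robust empirical Bayes) in R 4.3.3, with Benjamini-Hochberg adjustment over all of them and a threshold of 0.05. The count tests of edgeR 4.0.16 and DESeq2 1.42.0 on the recovered reads served as alternatives and called 1835 and 1057 genes lower and 2193 and 1496 higher, against 1734 and 2152 by limma. Other alternatives were the pseudocount, the filter, the scaling, the replicate letter as a block and leaving out each library in turn. Lists were described by counts and medians only. Members were named where among the 4 most changed called genes of a complex, core subunits or isoforms, or under the filter. Up to 4 called genes were named per list. Outside these limits, NDUFB2, NDUFB5, NDUFB6, NDUFB10, NDUFB11, NDUFA6, NDUFA11 and NDUFC2 were named after their values were seen. So were UQCRH, UQCRHL, UQCRBP1, ATP5F1, ATP5C1, ATP5H, ATP5J, ATP5J2, ATP5D and the further genes of the lists. Ratios, which were not among the planned results, were compared by exact permutation tests (two-sided). Gene positions come from GENCODE on GRCh37 (80 of 80 members by symbol) and promoters from RefSeq on GRCh38.p14. The values of 1 tested member are not reported here by name. Scripts were tested on simulated data. Python 3.11.15, pandas 2.3.3, scipy 1.17.1 and matplotlib 3.10.9 were used for the rest.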

Additional observations from a re-analysis of the deposited data

How the results depend on the processing

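The medians by complex stayed below 0 in all alternatives tried, members were called lower in each complex in all of them except in complex III without Caki2+PBRM1 B, where 0 were called, and 0 members were called higher in any of them by limma, edgeR or DESeq2. Among single genes, 671 values kept direction and side of the threshold, 57 lost the call, 9 gained one and 15 turned sign, none of these last past the threshold. Scaling by total reads moved the median log2 fold change to -0.15 over all members, beside a median of -0.06 over all genes. By complex it was -0.13, -0.19, -0.12 and -0.20 in complexes I, III, IV and V. The same scaling raised the counts called lower to 7 in complex III and 4 in complex IV, with 20.9% of all genes called lower. Under it the signs of ATP5G3 (-0.007), COX4I1 (-0.042), COX7A2L (-0.027), NDUFS8 (-0.036) and NDUFV1 (-0.028) turned, as did COX4I1 under quantile normalization (-0.017). DESeq2 called 14 members lower, with 5, 1 and 5 in complexes I, IV and V, where it also called fewer genes overall (7.95% lower), and the cause was not tested. With 1 library left out, and so fewer samples, the counts called lower ran from 10 to 26 over all members, from 4 to 8 in complex I, 0 to 5 in complex III, 1 to 4 in complex IV and 3 to 9 in complex V, and the medians from -0.118 to -0.085, -0.115 to -0.052, -0.176 to -0.102, -0.082 to -0.052 and -0.178 to -0.112. Of all genes, 9.12% to 14.4% were called lower in those fits. Log2 fold changes whose sign then turned ran from -0.084 to 0.019 for ATP5G2, -0.049 to 0.048 for COX4I1, -0.073 to 0.040 for COX7A2, -0.008 to 0.050 for COX7A2L, -0.083 to 0.015 for COX8A, -0.050 to 0.083 for NDUFS8 and -0.011 to 0.061 for NDUFV1. The replicate letters did not pair the libraries (correlations of deviations from -0.008 to 0.014 for shared letters and -0.024 to 0.017 for others), and with the letter as a replicate block 25 members were lower, against 23 without it. Genes under the filter on low values were not tested in the main fit. The median SE was 0.057 over members, and log2 fold changes of -0.133 for COX6B1 (SE 0.053) and -0.142 for UQCRHL (SE 0.064) were not called. The smallest change called was -0.095 for ATP5B, at an SE of 0.033. A member that was not called may thus still differ by more than 0.1 on the log2 scale.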
